A study of Mus musculus with 24 samples.

Results

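The cytosolic ribosomal protein genes are the genes for the proteins of the large (Rpl) and small (Rps) subunits of the ribosome in the cytoplasm, and they were followed here across 8 groups of mouse embryonic fibroblasts. They were chosen by symbol alone: a row of the deposited table was a member when its symbol was Rpl or Rps followed by a protein number, with the stalk proteins Rplp0 to Rplp2 and Rpsa included. The rule found 88 of the 47480 rows, 52 of the large and 36 of the small subunit. Of these, 83 passed the filter on low counts, which kept 14772 genes in all. The 5 members that did not pass were Rpl10l, with 38 counts over all libraries, Rpl6l with 21, Rps3a2 with 14, Rpl39l with 2 and Rps12l1 with 0.

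All cells were wild type per the labels. The libraries cross a control siRNA (siCTRL) or an siRNA named for Cop1 (siCop1) with the solvent DMSO or the compound KL001, and each combination was sequenced without and with Dexa. This gives siCTRL DMSO, siCTRL DMSO with Dexa, siCTRL KL001, siCTRL KL001 with Dexa, and the same 4 groups with siCop1, with 3 libraries each and 24 in all. Cop1 recruits substrates to CRL4 ubiquitin ligases, and the compound KL001 slows the breakdown of cryptochromes, which repress the circadian clock. No dose, time or meaning of Dexa was given in the sources used here. The labels do not say whether the 3 libraries of a group came from separate cultures, so p-values measure the spread between these libraries, which may be technical.

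Ribosomes hold their proteins in fixed proportions, with more than 1 copy only of the stalk proteins Rplp1 and Rplp2, and cells adjust the set together through transcription and through translation of the messages. Most of these messages start with an uninterrupted run of pyrimidines, the 5′ TOP motif, which lets mTOR signalling through Larp1 and the 4E-BP proteins switch their translation on and off. The genes are short, strongly expressed, and have left many processed pseudogenes in the mouse genome. Several proteins have a second copy (a paralog) that is used in testis, muscle or lymphocytes, and a few, such as Rpl5 and Rpl11, bind Mdm2 and so link ribosome assembly to p53.

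Library totals ran from 21409988 to 27875023 counts. Cop1, listed under its older symbol Rfwd2, lay at 24.99 to 29.7 CPM (counts scaled to the library total adjusted by TMM) in the 12 siCTRL libraries and at 4.33 to 5.79 in the 12 siCop1 libraries. All 8 fibroblast markers examined were present, with a summed level of 41727 to 57150 CPM, not adjusted by TMM, in each library. The leukocyte markers Ptprc, Cd3e and Itgam and the endothelial markers Pecam1 and Cdh5 were under 1 CPM in every library. Of the 6 leukocyte markers examined 2, Cd68 and Lyz2, had a mean of at least 1 CPM. The 6 summed to 2.22 to 14.8 CPM, and the 4 endothelial markers, none with such a mean, to 0.736 to 2.80. The 7 heart muscle markers summed to 18.7 to 92.6 CPM in 6 siCTRL libraries and to 0.938 to 3.29 in the other 18, and the epithelial markers summed to 2.82 to 68.4. Counts come from bulk RNA, so fewer cells of a type and less RNA per cell cannot be told apart.

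Stretches of 30 bases at or near the start of 6 members are shown because a pyrimidine run at the start is described for most of these messages. They are from RefSeq starts on GRCm38.p6, written 5′ to 3′ on the strand of the gene, with the longest run of C and T in capitals. These 6 were chosen after their values were seen, for the results described further on.
Rpl15, chr14:18270968-18270997, minus strand: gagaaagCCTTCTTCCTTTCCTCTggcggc
Rpl22l1, chr3:28805499-28805528, plus strand: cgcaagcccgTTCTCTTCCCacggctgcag
Rpl39, chrX:37085225-37085254, minus strand: cgagtcatccaTCCCCCCCTaagctccgcc
Rplp2, chr7:141447636-141447665, plus strand: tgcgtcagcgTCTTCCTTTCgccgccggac
Rps6, chr4:86857349-86857378, minus strand: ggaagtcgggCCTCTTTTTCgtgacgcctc
Rps4x, chrX:102189365-102189394, minus strand: ggagcaacccaggCTCCagcgcgcgcgcag
Of these 6 the run was longest in Rpl15, with 17 bases, and 9 or 10 bases long in Rpl22l1, Rpl39, Rplp2 and Rps6. Relative to the RefSeq start, the runs began at -4 in Rpl15, 1 in Rpl22l1, -21 in Rpl39, -5 in Rplp2, -1 in Rps6 and 10 in Rps4x. The Rpl39 run thus lies wholly before the RefSeq start, and the stretch shown for Rpl39 does not reach that start. In this window the Rps4x start held a run of only 4. A run of at least 8 bases of C or T on the gene's strand, within 30 bases on either side of the start, was found at 37 of 75 member starts (49.3%). Those starts belong to 63 of the 88 members. The same search found a run at 22.9% of all 32851 starts in the table and at 21.7% of the starts of other genes that passed the filter. A match is a description of the letters and does not show that a message is under this control.

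The members took 0.930% to 1.19% of all counts in a library. Their levels, compared per kilobase of transcript, ran over several orders of magnitude. Rplp1, a protein of the stalk that recruits elongation factors, was highest at 1301 CPM per kilobase, and Rpl8 stood at 1101. Rpl4, with 1302 CPM before scaling to length, had the most counts. At the other end Rps29 stood at 1.22 CPM per kilobase, Rpl38 at 1.32 and Rpl24 at 0.708, and the muscle paralog Rpl3l at 0.0726.

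The levels were set beside how much of each transcript can be told apart from copies elsewhere. For each member, every stretch of 50 bases of its GENCODE transcript was searched for in the transcripts of all other genes, pseudogenes included. The members had a median of 46.5% of stretches found nowhere else, with a range of 0% to 100%, and 85 of 88 shared a stretch with a pseudogene. Mitochondrial ribosomal protein genes, which are nuclear genes of another ribosome, had a median of 97.0%. The median level was 8.56 CPM per kilobase in the 17 kept members with under 20% unique stretches, 55.9 in the 29 with 20% to under 50%, and 97.3 in the 37 with 50% or more. Over the 83 kept members the rank correlation of unique share and level was 0.386, a description of genes that share libraries and sequence. Rps27, with 1.35% unique stretches, lay at 6.95 CPM per kilobase, and its paralog Rps27l, with 77.6%, at 129. The part that uniqueness plays in these levels was not tested, and Rps29, Rpl38 and Rpl3l were low with 64.2%, 59.8% and 100% unique stretches. The sources used here do not say how reads with several matches were counted, and levels of single members are therefore uncertain. Comparisons of 1 member between groups rest on the same transcript and the same counting in every library.

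**Figure D1:**
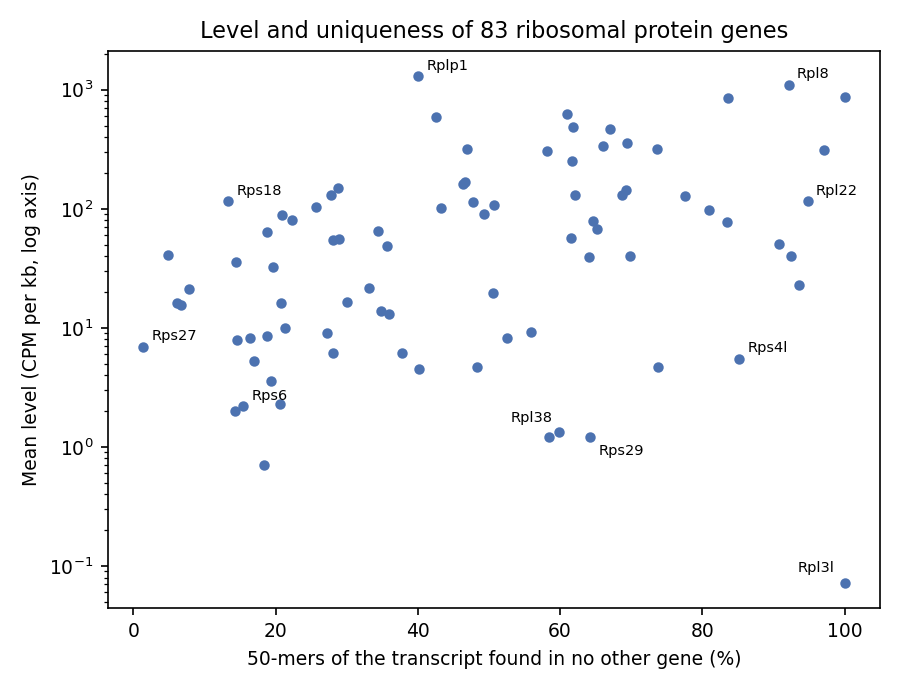
Mean level over 24 libraries (CPM per kilobase, log axis) of the 83 kept ribosomal protein genes against the share of 50-base stretches of the transcript found in no other gene (%), 1 point per gene. Points under 20% reach at most 116 CPM per kilobase, and Rpl3l, Rps29 and Rpl38 lie low at high shares.

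The siCop1 libraries had lower levels of many ribosomal protein messages, by small amounts. Averaged over the 4 settings (DMSO or KL001, without or with Dexa), which sets 12 libraries against 12, 47 of the 83 members fell and 2 rose. A member was called at an adjusted p under 0.05 in the quasi-likelihood test of edgeR, with p-values adjusted over all 14772 genes by the Benjamini-Hochberg method. Of all genes, 55.7% passed in this comparison, 29.4% lower and 26.2% higher, so the share of members that passed, 59.0%, was near that of all genes while their direction was mostly lower. The median log2 difference of the members was -0.09, which is -6.18%, beside 0.00 for all genes. Of the 49 large subunit members 32 fell and 0 rose, and of the 34 small subunit members 15 fell and 2 rose.

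KL001 went with higher levels. Averaged over the same 4 kinds of setting, 36 of the 83 members rose and 2 fell, where 24.1% of all genes passed, 11.8% higher and 12.4% lower. The median log2 difference of the members was 0.09, or 6.33%, beside 0.00 for all genes. Of the large subunit members 20 rose and 1 fell, and of the small subunit members 16 rose and 1 fell. The averages for siCop1 and for KL001 use the same 24 libraries, so they are not independent of each other. With Dexa, 6 members rose and 0 fell, 7.23% of the 83, where 47.1% of all genes passed (22.2% higher, 24.9% lower). The median log2 difference of the members with Dexa was 0.03. The other 77 members did not pass with Dexa, which does not show that they did not change.

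**Figure D2:**
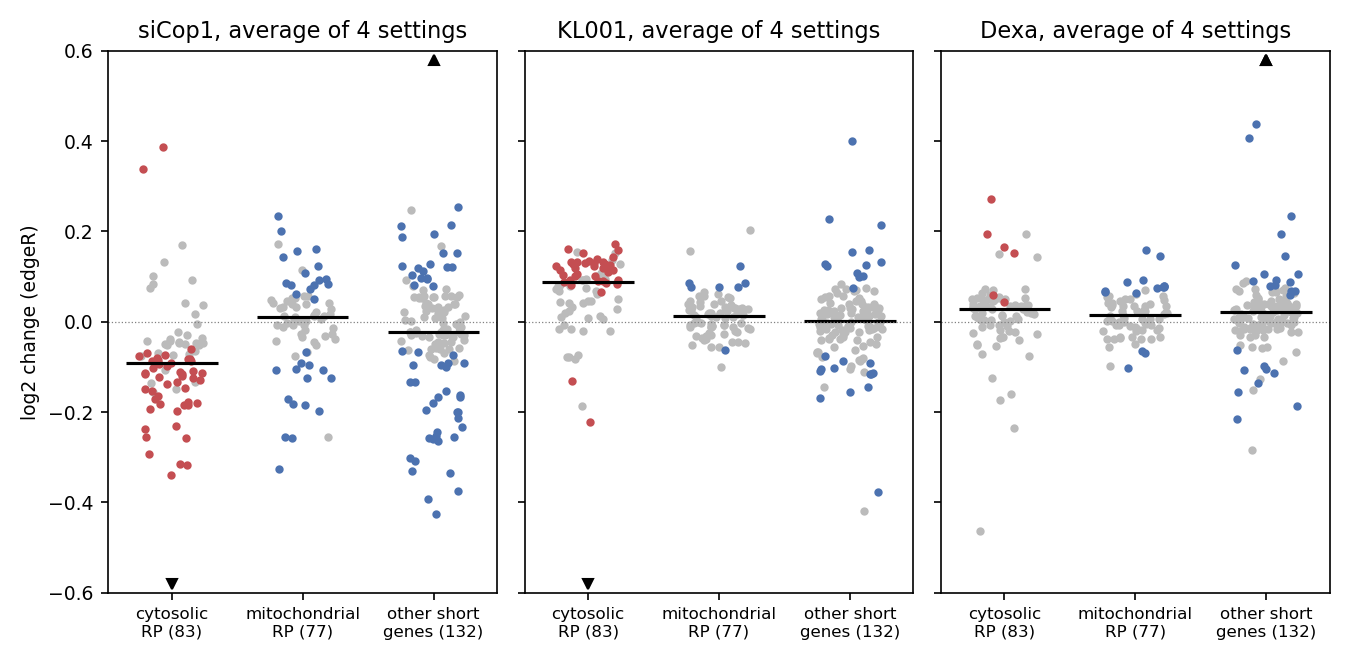
log2 difference (edgeR, averaged over 4 settings) with siCop1, KL001 and Dexa for cytosolic ribosomal protein (RP) genes, mitochondrial RP genes and other genes of at most 700 nt and at least 10 CPM. Each point is 1 gene, grey where the adjusted p is 0.05 or more and coloured otherwise, lines are medians, and triangles mark genes beyond the axis (in the cytosolic set, 1 gene with siCop1 and 1 with KL001). The cytosolic set lies mostly below 0 with siCop1, with a median of -0.09, and mostly above 0 with KL001, with a median of 0.09.

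The share of all counts on the members showed the same order with overlapping ranges. It was 0.941% to 1.19% with a median of 1.06% in the siCTRL libraries, and 0.930% to 1.07% with a median of 0.986% in the siCop1 libraries. In DMSO it was 0.930% to 1.11% with a median of 0.972%, and with KL001 0.996% to 1.19% with a median of 1.06%. Within the siCop1 libraries the 6 with DMSO, at most 0.975%, all lay below the 6 with KL001, at least 0.996%. In the siCTRL libraries these 2 arms overlapped.

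Some markers of cell types were also called in these comparisons. With siCop1 all 6 heart muscle markers that passed the filter fell, 4 of 6 epithelial and both kept leukocyte markers rose, 1 of 3 endothelial markers fell, and of the 8 fibroblast markers 5 fell and 2 rose. With KL001 6 of the 8 fibroblast markers fell and none of the other lists had a called member. Of all genes, 55.7% passed with siCop1 (26.2% higher, 29.4% lower) and 24.1% with KL001 (11.8% higher, 12.4% lower). The part of these markers in the ribosomal protein result was not tested. The 3 siCTRL DMSO libraries are all among the 6 with high heart muscle markers, so the averages could not be fitted without those 6.

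**Figure D3:**
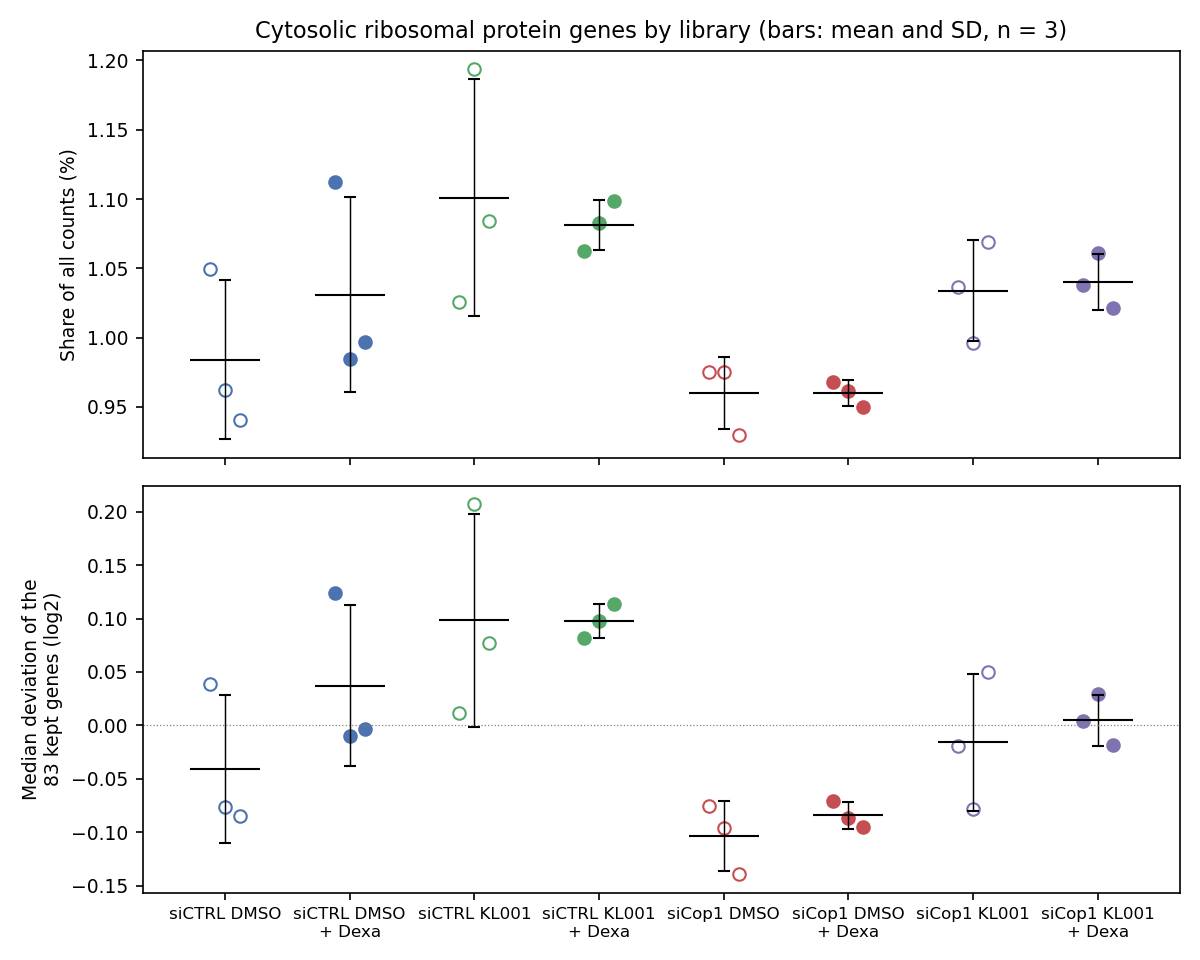
Share of all counts on ribosomal protein genes (%, above) and the median over 83 genes of each gene's deviation from its mean log2 CPM (below) in each of 24 libraries. Points are libraries, bars are mean and SD of 3, and filled points have Dexa. The 6 siCop1 DMSO libraries lie between -0.14 and -0.07 in the lower panel, and the highest library, siCTRL KL001 replicate 2, at 0.21.

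Ribosomal protein messages are short, with a median of 833 nt (345 to 5179) beside 2839 nt for all genes, and the libraries differed in how levels depended on length. The slope of the deviation of all other genes against transcript length ran from -0.06 to 0.03 log2 units per doubling of length. Libraries where short genes were high also had high ribosomal protein messages, with a rank correlation of -0.606 over 24 libraries. For mitochondrial ribosomal protein genes, also short, it was -0.853. The 2 steepest libraries were siCTRL KL001 replicate 2, where the median member lay 0.21 above its mean, and siCTRL DMSO with Dexa replicate 1, where it lay 0.12 above. Both are on the siCTRL side of the siCop1 comparison, the first in the KL001 arm without Dexa and the second in the DMSO arm with Dexa. Without these 2, 39 members fell and 3 rose with siCop1, 36 rose and 2 fell with KL001, and 14 rose and 0 fell with Dexa. Of all genes, 55.3%, 25.6% and 47.6% passed in this fit. The medians of the members were then -0.07 with siCop1, 0.08 with KL001 and 0.04 with Dexa. Medians in single settings moved more. With siCop1 they went from -0.11 to -0.05 in KL001 without Dexa, and from -0.11 to -0.08 in DMSO with Dexa. With KL001 in siCTRL they went from 0.14 to 0.07 without Dexa, and from 0.05 to 0.10 with Dexa.

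With each library's trend against length taken out, 50 members fell and 2 rose with siCop1, and 42 rose and 2 fell with KL001. The medians were then -0.08 and 0.08, and 57.8% and 28.3% of all genes passed. With length and GC content taken out together, 47 fell and 3 rose with siCop1, and 37 rose and 2 fell with KL001, beside 59% and 29.9% of all genes. Dexa gave 8 higher and 1 lower under length (50.3% of all genes), and 9 higher and 3 lower under length and GC content (51.4%). The 132 other short genes (at most 700 nt) of at least 10 CPM had medians nearer 0, a difference that was not tested. With no trend taken out, 20 of these rose and 33 fell with siCop1 (median -0.02), and 13 rose and 13 fell with KL001 (median 0.00). With length taken out 28 rose and 37 fell with siCop1, and 15 rose and 22 fell with KL001. With no trend taken out, of 77 mitochondrial ribosomal protein genes, 16 rose and 15 fell with siCop1, and 6 rose and 1 fell with KL001, with a median of 0.01 in both. With length taken out these were 20 and 16 with siCop1, and 8 and 0 with KL001.

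**Figure D4:**
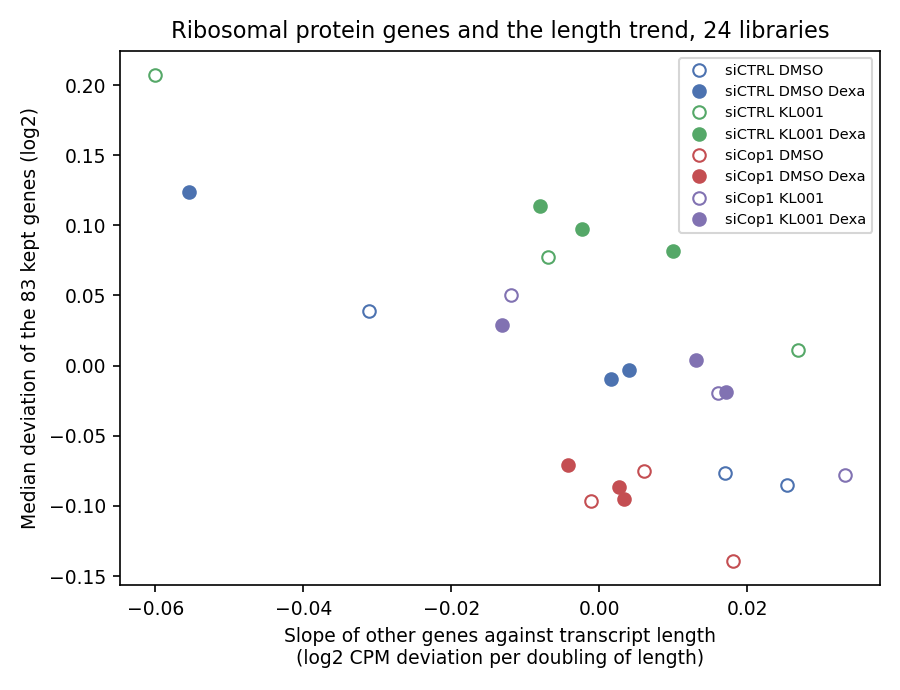
Median deviation of the 83 ribosomal protein genes (log2) against the slope of other genes' deviation on transcript length (log2 CPM per doubling), 1 point per library. The 2 libraries at the left, siCTRL KL001 replicate 2 and siCTRL DMSO with Dexa replicate 1, have the lowest slopes and the highest medians, and the 3 siCop1 DMSO libraries without Dexa are among the lowest in median, at slopes of up to 0.02.

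Most members that passed had at least 10 CPM. Among the 60 members with at least 10 CPM, 42 fell and 1 rose with siCop1, and 36 rose and 1 fell with KL001. Among the 23 below 10 CPM, 5 fell and 1 rose with siCop1, and 0 rose and 1 fell with KL001. Of all genes, 55.7% passed with siCop1 and 24.1% with KL001, and the shares by level were not counted. Other short genes were also called more often at higher levels. With siCop1 under RLE scaling, 24.8% of these 576 passed, and 39.4% of the 132 with at least 10 CPM. Of the 37 members with at least 50% unique stretches, 24 fell and 1 rose with siCop1, and 21 rose and 1 fell with KL001. Of the 46 others, 23 fell and 1 rose with siCop1, and 15 rose and 1 fell with KL001. The difference between these classes was not tested.

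Rpl15, a core protein of the large subunit (gene at chr14:18267823-18271391, minus strand, GRCm38), was singled out after its values were seen. Its 12 siCTRL and 12 siCop1 libraries did not overlap. The share of all genes separated in this way was not counted. It lay at 76.6 to 86.3 CPM with a median of 82.7 in siCTRL, and at 69.5 to 74.8 with a median of 71.9 in siCop1. The log2 difference was -0.19 ± 0.02 (SE, edgeR adjusted p = 1.17e-09). With KL001 the Rpl15 difference was 0.01 (edgeR adjusted p = 0.877). The pyrimidine run of Rpl15 is the longest of the 6 shown above, but Rpl7a (21 bases), Rpl27a (20), Rpl34 (20) and Rpl35 (18) have longer ones. A link between run length and these differences was not tested.

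Among the stalk and exit tunnel proteins 3 of 4 kept members fell with siCop1 and 2 rose with KL001. Rplp1 lay at 622 to 820 CPM with a median of 703 in siCTRL and at 551 to 638 with a median of 584 in siCop1. Its log2 difference was -0.26 ± 0.03 (SE, edgeR adjusted p = 2.64e-07), and the arms overlapped in a narrow range. Rplp0, which anchors the stalk, differed by -0.18 with siCop1 and by 0.12 with KL001, and both passed. For Rplp2, the partner of Rplp1, the differences were -0.13 and 0.15 with a larger SE of 0.06, and neither passed (edgeR adjusted p = 0.0613 and 0.0694). Both Rplp2 differences passed with length taken out (edgeR adjusted p = 0.037 and 0.0221) and with no filter on low counts (6.52e-10 and 4.44e-12), and the KL001 difference also with DESeq2 (0.0398) and with length and GC content taken out (0.0122). Whether Rplp2 differs from Rplp1 was not tested. Rpl39, a small protein that lines the exit tunnel, lay at 44.4 to 59.4 CPM with a median of 53.3 in siCTRL and at 39.0 to 47.8 with a median of 41.8 in siCop1. The Rpl39 difference was -0.32 ± 0.04 with siCop1 (edgeR adjusted p = 1.19e-06) and 0.07 with KL001 (edgeR adjusted p = 0.266). Its testis paralog Rpl39l had 2 counts in all libraries together.

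Rpl5 and Rpl11, which carry the 5S rRNA into the ribosome and bind Mdm2, did not move alike. Rpl5 fell with both siCop1 (-0.10 ± 0.03) and KL001 (-0.13 ± 0.03, edgeR adjusted p = 7.72e-04). Its levels were 31.8 to 37.3 CPM with a median of 33.9 in DMSO and 28.4 to 35.2 with a median of 31.0 with KL001, so the arms overlapped. Rpl5 was 1 of the 2 members lower with KL001, and it has 6.16% unique stretches. Rpl11 rose with Dexa by 0.17 ± 0.06 (edgeR adjusted p = 0.0183) from a low level of 5.11 CPM, and passed with neither siCop1 nor KL001. Without the 2 libraries of steepest length trend it was called higher with siCop1 (0.16, edgeR adjusted p = 0.0121). Rpl23, which also binds Mdm2, fell with siCop1 (-0.11) and rose with KL001 (0.13), and Rps27l, a target of p53, likewise (-0.11 and 0.09). The KL001 calls of Rpl23 and Rps27l were lost without the same 2 libraries (edgeR adjusted p = 0.057 and 0.072).

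The paralog pairs differed in level and, in 1 pair, in direction. Rpl22l1 (chr3:28805436-28807424, plus strand, GRCm38), the paralog of Rpl22, with which it has been studied in lymphocyte development, lay at 33.9 to 45.5 CPM with a median of 39.5 in siCTRL and at 28.8 to 34.5 with a median of 31.5 in siCop1. Only the ends of these ranges overlapped, and the log2 difference was -0.32 ± 0.03 (SE, edgeR adjusted p = 4.47e-11). Rpl22 itself, at 237 CPM, differed by -0.02 with siCop1 (edgeR adjusted p = 0.412). With KL001 both passed, Rpl22l1 with 0.14 and Rpl22 with 0.07. The Rpl22 call was lost in 13 of the 24 fits that left out 1 library, with edgeR adjusted p up to 0.069.

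Rps4x, the X-linked small subunit gene (chrX:102184941-102189394, minus strand, GRCm38), and Rps4l, a copy on chromosome 6 (chr6:148354656-148355598, plus strand), went in opposite directions. Rps4x lay at 107 to 135 CPM with a median of 121 in DMSO and at 124 to 148 with a median of 134 with KL001. It rose by 0.17 ± 0.02 (SE, edgeR adjusted p = 1.61e-07), was the only member called higher with KL001 in each of the 4 settings, and fell by 0.12 with siCop1. Rps4l lay at 3.79 to 5.16 CPM with a median of 4.52 in siCTRL and at 4.74 to 7.38 with a median of 5.79 in siCop1. It rose by 0.39 ± 0.05 with siCop1 (edgeR adjusted p = 4.45e-07) and fell by 0.22 ± 0.05 with KL001 (edgeR adjusted p = 0.00273). Rps4l had 85.1% unique stretches and Rps4x 27.8%.

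In the siCop1 DMSO group without Dexa, Rps4l stood at 7.38, 6.14 and 7.01 CPM, against 5.16, 4.17 and 4.09 in siCTRL DMSO. With siCop1 and KL001 it was at 4.95, 5.33 and 4.74, below all 3 siCop1 DMSO libraries. Rps3a3 (chr13:108670603-108671397, plus strand, GRCm38), a copy of Rps3a, was the other member that rose with siCop1. Rps3a3 was at 8.54 to 11.4 CPM with a median of 9.81 in siCTRL and at 10.4 to 13.9 with a median of 12.4 in siCop1, a log2 difference of 0.34 ± 0.04 (SE, edgeR adjusted p = 4.12e-08). It was called higher in each of the 4 settings. It had 34.9% unique stretches, so counts from Rps3a1 or other copies cannot be told apart from its own.

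**Figure D5:**
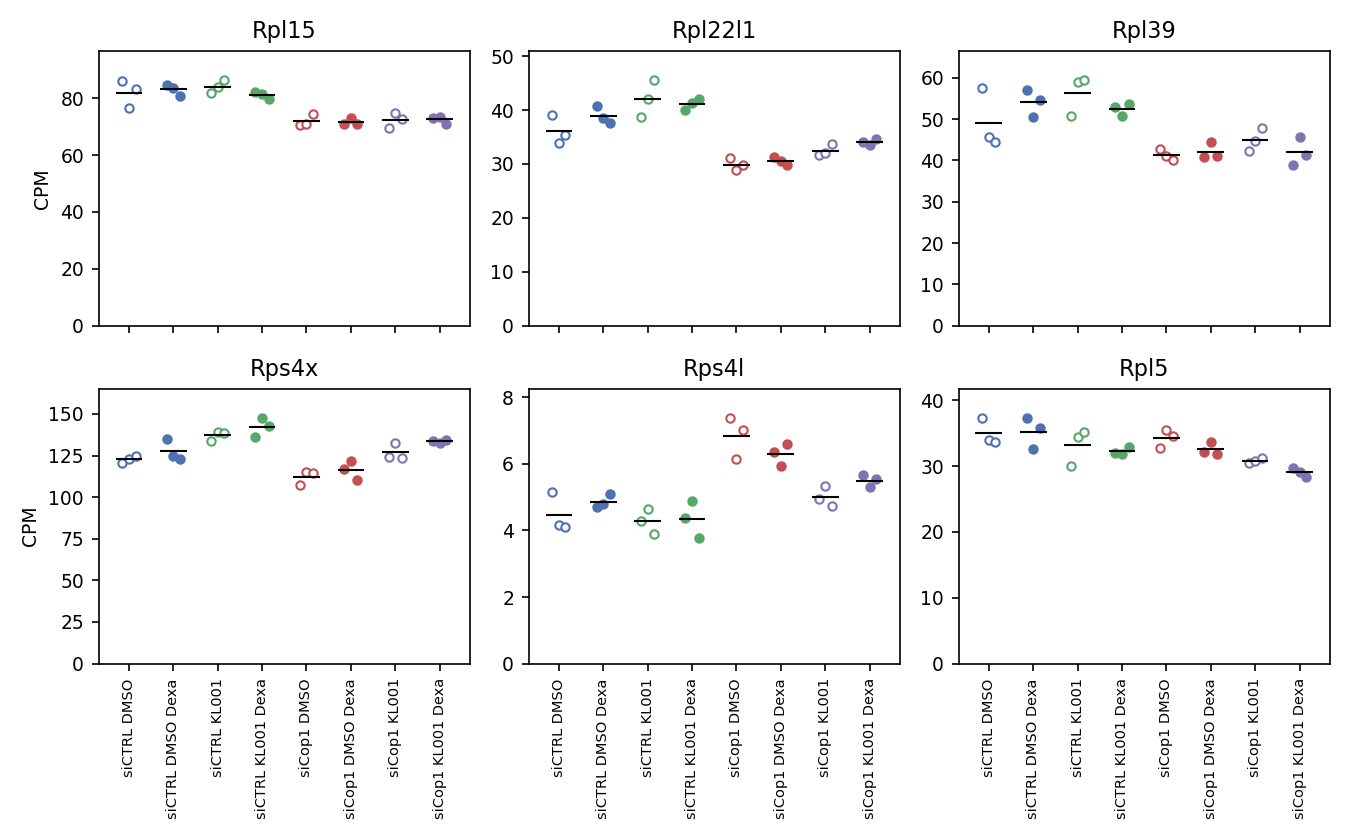
CPM of 6 ribosomal protein genes in each of 24 libraries by group, with the mean of 3 as a line and axes from 0. Rpl15, Rpl22l1 and Rpl39 are lower in the siCop1 groups, Rps4x is higher and Rpl5 lower with KL001, and Rps4l is highest in siCop1 DMSO.

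The remaining pairs followed the common direction or were too low to read. Rpl3, the partner of the muscle protein Rpl3l, fell by 0.18 ± 0.03 with siCop1, and its difference of 0.09 with KL001 (edgeR adjusted p = 0.0412) was lost in most fits that left out 1 library. Rpl7 fell with siCop1 (-0.12) and rose with KL001 (0.09). Rpl7l1, a nucleolar relative of Rpl7, fell with siCop1 (-0.11) but differed by -0.02 with KL001 (edgeR adjusted p = 0.542). Rpl10, which completes the large subunit late in its assembly, fell by 0.24 with siCop1 and rose by 0.15 with Dexa, and its testis copy Rpl10l had 37 of its 38 counts in 1 library, siCop1 DMSO replicate 2. Rps27 differed by 0.08 with siCop1 and by 0.04 with KL001, with an SE of 0.08, and passed in neither.

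Rpl3l, at chr17:24727820-24736143 on the plus strand of GRCm38, was called lower with siCop1 (edgeR adjusted p = 0.0223) on very few counts. It had 18, 2 and 3 counts in siCTRL DMSO, 1, 11 and 1 with Dexa, 0, 16 and 1 in siCTRL KL001, and 0, 3 and 0 with KL001 and Dexa. Each siCop1 library had 0 or 1. The 6 libraries with 2 or more counts are the same 6 siCTRL libraries in which the heart muscle markers were high, with 97 to 683 counts of Myh6, the heart muscle myosin, against at most 3 in the other 18. The Rpl3l call was lost without siCTRL DMSO with Dexa replicate 2 (edgeR adjusted p = 0.052), without siCTRL KL001 replicate 2 (0.077), and without siCTRL KL001 with Dexa replicate 2 (1.0). What part these 6 libraries have in the Rpl3l difference beyond their counts was not tested.

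Other small subunit members showed both called and uncalled values. Rpsa, also known as a laminin receptor, was at 16.9 to 23.98 CPM with a median of 19.3 in siCTRL and at 14.6 to 17.6 with a median of 15.6 in siCop1. Its log2 difference of -0.34 ± 0.04 (SE, edgeR adjusted p = 5.74e-08) was the lowest among called members with at least 1 CPM. Rpsa did not pass with KL001 (0.04). Rps12 differed by -0.29 with siCop1 at a level of 4.83 CPM and passed. Rps14 and Rps19, whose reduced dose causes anaemia in people, fell with siCop1 (-0.08 and -0.09) and rose with KL001 (0.08 and 0.16). The siCop1 call of Rps19 was lost when length and GC content were taken out (edgeR adjusted p = 0.126). Rps24 rose with KL001 (0.15) and did not pass with siCop1 (-0.05), where it was called lower with length and GC content taken out (-0.08, edgeR adjusted p = 0.00852) and with no filter on low counts (0.0411).

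Rps6, the substrate of S6 kinase, was low, at 1.93 CPM, with 15.4% unique stretches. It passed only with siCop1 in DMSO without Dexa, where it was at 1.86, 1.71 and 1.21 CPM against 1.95, 2.27 and 2.58 in siCTRL, a log2 difference of -0.50 ± 0.17 (edgeR adjusted p = 0.026). Averaged over the 4 settings the Rps6 difference was -0.16 (edgeR adjusted p = 0.126). Rps25, which is used by some viral internal ribosome entry sites, differed by 0.10 ± 0.13 with siCop1 and was called with no filter on low counts (edgeR adjusted p = 0.0472). Rps27a, made as a fusion with ubiquitin, and Rps29 did not pass in any averaged comparison. Their levels were 4.87 and 0.475 CPM, and their SEs with siCop1 0.06 and 0.17, beside the members' median of -0.09. That Rps27a and Rps29 did not pass does not show that they did not change.

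Among other large subunit members, Rpl41, the shortest of the ribosomal proteins, lay at 130 to 170 CPM with a median of 148 in siCTRL and at 119 to 139 with a median of 125 in siCop1. Its difference was -0.26 ± 0.04 (SE, edgeR adjusted p = 3.51e-06), and 0.04 with KL001. Rpl13a, which also serves in an interferon-induced repressor of translation, fell with siCop1 (-0.14). Its KL001 difference of 0.09 (edgeR adjusted p = 0.0267) was lost in 4 of the fits that left out 1 library. Rpl38, known for the translation of Hox messages, was at 0.604 CPM and did not pass. Rpl36a differed by -0.15 with siCop1, but with DESeq2 its adjusted p was 0.122. Its call was also lost in edgeR with RLE scaling (adjusted p = 0.0505), with no filter (0.112) and without the 2 steepest libraries (0.107). The 2 most abundant members followed the common direction, Rpl4 with -0.08 and 0.13 and Rpl8 with -0.10 and 0.12 for siCop1 and KL001.

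Few members passed with Dexa. Rpl10a, a large subunit protein found on only part of the ribosomes, was the clearest. It lay at 54.97 to 72.2 CPM with a median of 61.2 without Dexa and at 61.5 to 80.7 with a median of 70.7 with Dexa, a log2 difference of 0.19 ± 0.02 (SE, edgeR adjusted p = 4.82e-08). In siCTRL DMSO it went from 67.1, 63.5 and 60.8 CPM to 76.6, 74.8 and 70.1, with no overlap, and in siCop1 DMSO from 61.1, 60.8 and 54.97 to 71.3, 67.2 and 69.5. Rps13 rose by 0.27 ± 0.08 at 3.13 CPM, and Rpl10, Rpl11, Rpl4 and Rps4x by 0.04 to 0.17. The Rps4x call was lost with length taken out (edgeR adjusted p = 0.055) and that of Rpl4 with length and GC content taken out (0.175). Rpl23a, at 1.11 CPM, was the single member called in siCop1 KL001, with 1.01, 0.579 and 0.896 CPM without and 1.21, 1.24 and 1.67 with Dexa.

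Within single settings fewer members passed, in the same direction. With siCop1 in DMSO without Dexa, 13 fell and 2 rose, beside 16.6% and 12.8% of all genes. In DMSO with Dexa 24 fell and 2 rose, beside 16.7% and 14.4%. In KL001 without Dexa 20 fell and 1 rose, beside 18.2% and 14.5%, and in KL001 with Dexa 18 fell and 2 rose, beside 16.3% and 13.7%. The difference was negative in all 4 settings for 52 members and positive in all 4 for 2. Called lower in each of the 4 were 6, Rpl15, Rpl22l1, Rpl39, Rplp0, Rplp1 and Rpsa. The share of all genes with the same sign or the same call in all 4 settings was not counted, so whether these numbers are unusual is not known. The DMSO count with Dexa went from 26 to 16 without siCTRL DMSO with Dexa replicate 1. The count in KL001 without Dexa went from 21 to 11 without siCTRL KL001 replicate 2 and to 35 without siCTRL KL001 replicate 1. The count in KL001 with Dexa went from 20 to 12 without siCTRL KL001 with Dexa replicate 3 and to 13 without siCop1 KL001 with Dexa replicate 1.

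With KL001 in siCTRL without Dexa, 15 members rose and 0 fell, beside 3.22% and 3.51% of all genes. In siCTRL with Dexa 1 rose and 0 fell, beside 4.98% and 5.58%. In siCop1 without Dexa 3 rose and 1 fell, beside 1.77% and 2.32%, and in siCop1 with Dexa 7 rose and 0 fell, beside 2.5% and 2.97%. The difference was positive in all 4 settings for 47 members and negative in all 4 for 2, and the share of all genes was again not counted. These counts rest on single libraries: the 15 became 6 without siCTRL KL001 replicate 2, 5 without siCTRL DMSO replicate 3, 9 without siCTRL DMSO replicate 2, 23 without siCTRL DMSO replicate 1 and 26 without siCTRL KL001 replicate 1. In siCTRL with Dexa, where the 1 member was Rps4x, the count was 0 without replicate 2 or 3 of siCTRL DMSO with Dexa or replicate 2 of siCTRL KL001 with Dexa, and 2 without replicate 1 of either group. In siCop1 without Dexa the 4 became 1 without siCop1 DMSO replicate 1, and 2 without siCop1 DMSO replicate 3 or siCop1 KL001 replicate 2. In siCop1 with Dexa the 7 became 2 to 4 without replicate 1 or 3 of siCop1 DMSO with Dexa or any replicate of siCop1 KL001 with Dexa.

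With Dexa in siCTRL DMSO 6 members rose and 0 fell, beside 12.7% and 14.1% of all genes. In siCTRL KL001 2 rose and 0 fell, beside 12.7% and 14%. In siCop1 DMSO 1 rose and 1 fell, beside 12% and 11.6%, and in siCop1 KL001 1 rose and 0 fell, beside 12.1% and 12.4%. The 6 in siCTRL DMSO became 2 without siCTRL DMSO with Dexa replicate 1, 3 without siCTRL DMSO replicate 3, and 12 to 14 without siCTRL DMSO replicate 1 or replicate 2 or 3 of siCTRL DMSO with Dexa. In siCop1 DMSO the 2 became 1 without siCop1 DMSO replicate 2 or any replicate of siCop1 DMSO with Dexa. In siCop1 KL001 the 1 became 0 without siCop1 KL001 replicate 2 and 2 without replicate 3. The averaged count of 6 became 14 without siCTRL KL001 replicate 2 and 10 without siCTRL DMSO with Dexa replicate 2.

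No member was called for a dependence of one factor on another. The interactions of siCop1 with Dexa, of KL001 with Dexa and of siCop1 with KL001 gave 0 called members each in edgeR, where 1.82%, 0.183% and 0.447% of all genes passed. An unadjusted p under 0.05 was found in 1, 2 and 2 members by edgeR and in 0, 2 and 1 by DESeq2, which also called 0. They were Rpl10 for siCop1 with Dexa, Rpl23a and Rpl39 for KL001 with Dexa, and Rpl10a and Rps3a3 for siCop1 with KL001 by edgeR. With length taken out 1 member was called for siCop1 with KL001.

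Genes that act with the ribosomal proteins were described from 4 lists, whose counts stand beside the 55.7%, 24.1% and 47.1% of all genes that passed with siCop1, KL001 and Dexa. Of the ribosomal proteins with other symbols 4 of 5 passed the filter. Gnb2l1 (Rack1), the scaffold on the small subunit, fell with siCop1 (-0.13) and rose with KL001 (0.12). Gnb2l1 was the only one of these 4 called in either comparison. A list of 17 genes described as having 5′ TOP messages held mostly translation factors, and also genes such as Npm1 and Hnrnpa1. The motif was not counted in these 17. Of them 4 rose and 7 fell with siCop1, 10 rose and 0 fell with KL001, and 2 rose and 1 fell with Dexa. That is 64.7%, 58.8% and 17.6% called. The elongation factor Eef1a1 was among those lower with siCop1 (-0.19), and Eef1g (0.17) and the poly(A) binding protein Pabpc1 (0.15) among those higher with KL001. The median of the 17 was -0.01 with siCop1 and 0.08 with KL001.

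Of 26 genes of ribosome biogenesis, 8 rose and 5 fell with siCop1, 19 rose and 0 fell with KL001, and 9 rose and 4 fell with Dexa. The called shares, 50% with siCop1 and 50% with Dexa, were near those of all genes, and with KL001 it was 73.1%. With KL001 their median was 0.08. Fbl, the methyltransferase of box C/D particles, was higher with KL001 (0.27 ± 0.07) and the nucleolar protein Rrp1b with Dexa (0.47 ± 0.02). Bop1, which processes the rRNA of the large subunit, was lower with siCop1 (-0.21).

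Of 18 genes that control ribosomal protein synthesis, 9 rose and 5 fell with siCop1, 7 rose and 1 fell with KL001, and 9 rose and 4 fell with Dexa, which is 77.8%, 44.4% and 72.2% called. Mtor, the kinase itself, rose with siCop1 (0.35 ± 0.02) and with Dexa (0.89 ± 0.02). The translation repressor Eif4ebp2 rose (0.75) and its relative Eif4ebp1 fell (-0.36) with siCop1. Ddit4, an inhibitor of mTOR signalling, fell with siCop1 (-0.29) and rose with KL001 (0.23), and Sesn1, another inhibitor, rose with Dexa by 2.16 ± 0.02.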

How the data were processed

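Raw counts per gene symbol in 24 libraries were deposited by the authors, and every column was matched to a library by name (0 left unused). The submitters' processing notes name bcl2fastq 1.8.4, STAR 2.4.5a, featureCounts, Subread 1.4.6-p3, Picard 1.126, DESeq2, GRCm38 and mm10, with no role or order. The deposited normalized table was not used.

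Low genes were removed with filterByExpr (minimum count 10, minimum total 15; R 4.3.3). All 24 libraries were scaled by TMM and entered 1 robust quasi-likelihood fit in edgeR 4.0.16 with a mean for each group, and its common biological coefficient of variation came to 3.71%. P-values were two-sided and adjusted by Benjamini-Hochberg over the 14772 genes kept. Lengths, GC content and 50-base stretches were taken from GENCODE vM21 transcripts, which covered 99.2% of kept genes. Length and GC trends were splines with 4 degrees of freedom, fitted on non-members and used as offsets. Other alternatives were RLE scaling, no filter, DESeq2 1.42.0, a block for the replicate number, fits restricted to the groups compared, the omission of each library and, added after seeing the data, the omission of the 2 steepest libraries. Scripts were tested on simulated data. SE is the unshrunken log2 difference over the square root of F. PCR copies were not told apart.

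Named genes were the members of 5 lists of stalk, 5S, paralog and other members, up to 5 called members each way per averaged comparison and 1 each way per single setting (mean of at least 1 CPM), the 3 most and 3 least abundant kept members, and up to 2 called genes each way per list of other genes. Members and lists were chosen with earlier results of these data known. Some genes that fall under this rule are not reported here.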

Additional observations from a re-analysis of the deposited data

How the results depend on the processing

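The averaged counts of 49 members called with siCop1 and 38 with KL001 stayed within 1.5 times of these values under every alternative run, with 44 to 53 and 33 to 44 when 1 library was left out. No called value of a named member in the 3 averaged comparisons changed sign under any alternative run. With Dexa the averaged count of 6 became 11 with no filter, 12 with length and GC content taken out, and 14 without the 2 steepest libraries, with 6 to 14 when 1 library was left out. Single settings moved more, and their causes were not tested. For Dexa, siCTRL DMSO (6 called) gave 20 with no filter and 3 in a fit restricted to the groups compared, siCTRL KL001 (2) gave 5 without the 2 steepest libraries, siCop1 DMSO (2) gave 4 with no filter, and siCop1 KL001 (1) gave 0 with no filter and with DESeq2, 4 under both offsets and 3 in the restricted fit. For siCop1, DMSO without Dexa (15) gave 25 under length and GC content, KL001 without Dexa (21) gave 13 without the 2 steepest libraries, and KL001 with Dexa (20) gave 31 under length and 34 in the restricted fit. For KL001, siCTRL without Dexa (15) gave 39 with no filter, 26 under both offsets and 0 in the restricted fit. In siCTRL with Dexa (1) it gave 3 with no filter, 2 with DESeq2, 12 under length, 13 under length and GC content and 12 without the 2 steepest libraries. In siCop1 without Dexa (4) it gave 16, 13, 15 and 17, and with Dexa (7) 17, 18, 19 and 28, with no filter, under length, under length and GC content, and in the restricted fit. The interaction of siCop1 with KL001 (0) gave 1 under both offsets, and all 3 interactions gave 0 when 1 library was left out. Leaving out 1 library gave 2 to 14, 2 to 3, 1 to 2 and 0 to 2 for Dexa in siCTRL DMSO, siCTRL KL001, siCop1 DMSO and siCop1 KL001. It gave 12 to 14, 16 to 28, 11 to 35 and 12 to 17 for siCop1 in DMSO without and with Dexa and KL001 without and with Dexa. For KL001 it gave 5 to 26 and 0 to 2 in siCTRL, and 1 to 3 and 2 to 5 in siCop1, without and with Dexa. With the replicate number as a block, Dexa in siCop1 DMSO gave 1 called member in place of 2, and no other count moved by over 1.5 times. Under the block Rplp2 passed with siCop1 and with KL001 (edgeR adjusted p = 0.0403 and 0.043). Over 84 pairs of libraries with the same number, the correlation of their deviations ran from -0.29 to 0.46, with a median of 0.01. Of these pairs 19 were over 0.1. Over 168 pairs with different numbers it ran from -0.44 to 0.30 with a median of -0.002, and 27 were over 0.1. Of the 24 libraries, 13 correlated best with their own number. The heart muscle markers were high in replicate 2 of every siCTRL group and in replicates 1 and 3 of siCTRL DMSO. Whether samples with the same number are paired was not settled by these values. Members below 1 CPM, such as Rps29 and Rpl3l, rest on few counts in each library.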
